A study of Mus musculus with 9 samples.

Results

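Malat1, Neat1, Gas5, Snhg1, Snhg12, Meg3, Rian and Mirg are 8 long non-coding RNA genes of the mouse, picked by symbol as 8 of the 53700 gene IDs in the deposited count table. They fall into 3 kinds: abundant nuclear RNAs (Malat1 and Neat1), host genes of small nucleolar RNAs (Gas5, Snhg1 and Snhg12), and RNAs of the imprinted Dlk1-Dio3 domain (Meg3, Rian and Mirg). They were measured in C2C12, an established mouse myoblast line, by sequencing of total RNA in 9 libraries, 3 per group. Control wells were starved for 12 h in OPTI-MEM, a reduced-serum medium, and then collected. Valine wells were starved in the same way and then kept for 36 h with 0.45 mM valine, a branched-chain amino acid. Val+PA wells were starved likewise, then had valine at 0.45 mM during 24 h and the saturated fatty acid palmitic acid at 75 µM during 12 h. Each group was a single plate of 6 wells, of which 3 were drawn at random for sequencing. Treatment, plate and time since starvation therefore cannot be told apart between groups, and each p-value reflects only how wells of 1 plate varied within a group.

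Malat1 RNA stays in the nucleus, where it gathers at nuclear speckles, the stores of splicing factors. Neat1 is the scaffold of paraspeckles, nuclear bodies built from RNA-binding proteins such as Nono and Sfpq. Gas5, Snhg1 and Snhg12 carry small nucleolar RNAs (snoRNAs) in their introns, which guide chemical modification of ribosomal RNA. Spliced host RNAs encode no long protein, often start with a pyrimidine tract like that of ribosomal protein mRNAs (a 5′ terminal oligopyrimidine, or 5′ TOP, tract), and for Gas5 are known to be degraded by nonsense-mediated decay. Meg3, Rian and Mirg are made from the maternal copy of their domain and carry microRNAs or snoRNAs, while the paternal copy expresses the proteins Dlk1, Rtl1 and Dio3.

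The start regions of 4 members are shown because a pyrimidine tract at the start is typical of snoRNA host genes, with Malat1 set beside the 3 hosts. They are RefSeq sequences of build GRCm38.p6, 50 bases before to 50 bases from the annotated start, read 5′ to 3′ along the gene. Capitals mark the longest run of C and T letters touching the 20 bases on either side of the start. The regions are chr19:5802623-5802722 on the minus strand for Malat1, chr1:161034551-161034650 and chr1:161035116-161035215 on the plus strand for the first and second annotated starts of Gas5, chr19:8723437-8723536 on the plus strand for Snhg1, and chr4:132308628-132308727 on the plus strand for Snhg12.
Malat1: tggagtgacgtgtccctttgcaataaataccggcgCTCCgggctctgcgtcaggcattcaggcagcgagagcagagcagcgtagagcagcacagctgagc
Gas5, first start: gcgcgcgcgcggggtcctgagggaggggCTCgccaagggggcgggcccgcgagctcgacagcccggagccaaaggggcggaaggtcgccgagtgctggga
Gas5, second start: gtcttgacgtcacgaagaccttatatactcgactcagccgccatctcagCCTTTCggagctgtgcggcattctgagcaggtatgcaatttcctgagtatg
Snhg1: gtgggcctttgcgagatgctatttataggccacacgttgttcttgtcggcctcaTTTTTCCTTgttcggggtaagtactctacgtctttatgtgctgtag
Snhg12: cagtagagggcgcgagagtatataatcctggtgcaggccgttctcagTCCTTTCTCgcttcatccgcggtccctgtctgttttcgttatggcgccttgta

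The run was 9 letters in Snhg1 and in Snhg12, a length reached by 14.7% of all 32851 annotated starts in the RefSeq table. In Snhg1 it began 4 bases after the annotated start, so it does not span that start. In Snhg12 it began 3 bases before the annotated start. At the second start of Gas5 the run of 6 letters began 1 base before the annotated start, and 43.9% of starts had a run at least as long. The run was 4 letters at Malat1 (82.3% of starts) and 3 letters at the first start of Gas5 (95%). The median run was 5 over all starts, 7 over 23 starts of known 5′ TOP mRNAs and 6 over 15 starts of other snoRNA host genes. The letters TGACGTCA, the palindromic cAMP response element, were searched on both strands of the 300 bases around each start, and 1.79% of starts held them. Among the members they were in the windows of the second Gas5 start and the first Meg3 start. The letters TATAAA, likewise searched on both strands, were held by 13.6% of starts, Snhg1 and the first Meg3 start included. Neat1 was not matched in this table.

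Library totals ran from 26750226 counts in Control 3 to 35976589 in Val+PA 1, and 18415 genes had enough counts to be tested. Levels are CPM, counts scaled to a common library size after TMM adjustment, as mean ± SD with n = 3 libraries unless single libraries are given. Control 3 and Val+PA 2 lay away from their group's other libraries on the second principal component, which held 17.4% of the variance. The single most counted gene ID took 6.19% of the counts of Control 3 against 1.65% to 2.71% in the other libraries. The 8 myoblast markers were all tested and 4 rose in Valine, with sums of 9037 to 9616 CPM for Control, 10308 to 10472 for Valine and 10117 to 13970 for Val+PA. Of 8 fibroblast markers 7 were tested and 5 rose in Valine, with sums of 1148 to 1727 CPM for Control, 3236 to 3335 for Valine and 2945 to 4161 for Val+PA. Of 5 endothelial markers both that were tested rose in Valine, and the list summed to 0.524 to 1.09 CPM for Control, 2.45 to 3.05 for Valine and 2.36 to 3.49 for Val+PA, with Emcn at 0. Of 6 immune markers 2 were tested and 1 rose in Valine, and the list summed to 1.41 to 3.16 CPM for Control, 5.46 to 6.63 for Valine and 5.89 to 7.49 for Val+PA, with Itgam at 0. None of 6 adipocyte markers was tested, and their sum was at most 0.244 CPM in any library, with Adipoq, Lep and Retn at 0. Over all tested genes 20.8% rose in Valine against Control. The part of these marker shifts in the results on the 8 members was not tested.

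Of the 8 members, 5 passed the filter on low counts and 3 (Meg3, Rian and Mirg) did not. In Valine against Control, which asks what differed 36 h after valine was added, Malat1 rose and Neat1, Gas5, Snhg1 and Snhg12 fell. The same comparison called 20.8% of all tested genes higher and 21.1% lower, or 41.9% in either direction (edgeR quasi-likelihood test at 0.05 after Benjamini-Hochberg adjustment). The groups did not overlap for any of these 5 members, as was the case for 59% of all tested genes. In Val+PA against Control Malat1 rose and Gas5, Snhg1 and Snhg12 fell, beside 20.4% of all genes called higher, 18.8% lower and 39.2% in either direction. The groups of that comparison did not overlap for these 4 members and overlapped for Neat1, against no overlap for 45.5% of all tested genes. In Val+PA against Valine none of the members passed, and none of the 18415 genes did by edgeR (0% called). At an unadjusted p below 0.05 that comparison held 2428 genes, or 13.2%, and DESeq2 called 212 genes at an adjusted p below 0.05. Since RNA was taken from whole wells, fewer cells of a type and less RNA per cell cannot be told apart.

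**Figure D1:**
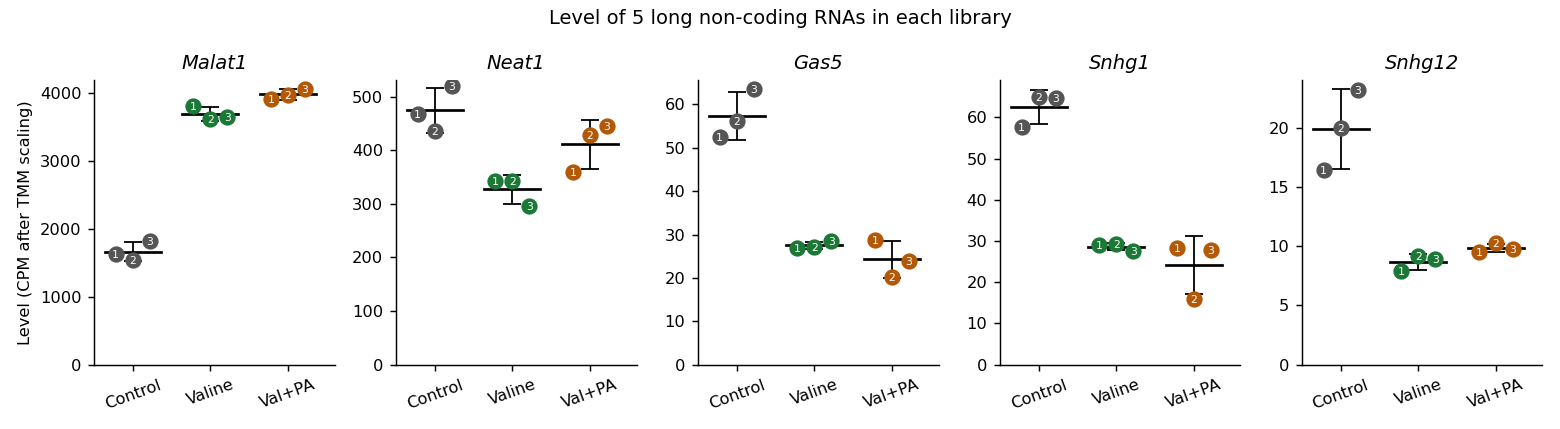
Level in CPM after TMM scaling (linear axes from 0) of Malat1, Neat1, Gas5, Snhg1 and Snhg12 in the 3 libraries of Control, Valine and Val+PA. Numbered points are replicates, lines are means and bars are SD; Malat1 is higher and Gas5, Snhg1 and Snhg12 are lower in every Valine and Val+PA library than in every Control library.

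Malat1 (ENSMUSG00000092341, GRCm38 chr19:5795690-5802672, minus strand) is a lincRNA of 6983 bases with no gap between its annotated exons. Its level was 1629, 1544 and 1819 CPM for Control 1 to 3, 3808, 3622 and 3651 CPM for Valine 1 to 3, and 3910, 3966 and 4067 CPM for Val+PA 1 to 3. Every treated library was above every Control library, and every Val+PA library was above every Valine library. The means were 1664 ± 141 CPM for Control, 3693 ± 100.1 for Valine and 3981 ± 79.8 for Val+PA (SD, n = 3). Malat1 was 2.22-fold higher in Valine than in Control, a log2 fold change of 1.15 (SE 0.09, edgeR adjusted p = 2.08e-06). In Val+PA it was 2.39-fold higher than in Control, a log2 fold change of 1.26 (SE 0.09, edgeR adjusted p = 1.11e-06). Between Val+PA and Valine the log2 fold change was 0.11 with a 95% interval of -0.11 to 0.33 (edgeR adjusted p = 0.576), although the groups did not overlap, as for 24.6% of all tested genes. By level Malat1 ranked 1 among 1771 long non-coding genes tested, and it took 0.155% to 0.169% of all counts in Control and 0.371% to 0.406% in the other libraries.

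Neat1 (ENSMUSG00000092274, GRCm38 chr19:5824708-5845478, minus strand), which lies on the same chromosome as Malat1 and the same strand, did the opposite in Valine. It stood at 467, 436 and 520.0 CPM for Control, 343, 343 and 295 CPM for Valine, and 359, 429 and 445 CPM for Val+PA, replicates 1 to 3 in turn. Valine libraries were all below the Control libraries, and Val+PA libraries lay between them or within the Control range. Mean levels were 474 ± 42.6 CPM for Control, 327 ± 27.6 for Valine and 411 ± 46.1 for Val+PA (SD, n = 3). Neat1 was 1.45-fold lower in Valine than in Control, a log2 fold change of -0.54 (SE 0.12, edgeR adjusted p = 0.00281). In Val+PA against Control its groups overlapped, and the log2 fold change of -0.21 had a 95% interval of -0.49 to 0.07 (edgeR adjusted p = 0.178). From Valine to Val+PA the log2 fold change was 0.33 (95% interval 0.05 to 0.61). Its p was below 0.05 only before adjustment (edgeR adjusted p = 0.329), as for 13.2% of all tested genes. These groups did not overlap for Neat1, as for 24.6% of all tested genes. The short and the long isoform of Neat1 share a single entry of 20771 bases, so these counts do not tell them apart.

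Within a library, the ratio of Malat1 to Neat1 counts needs no scaling between libraries. It was 3.49, 3.54 and 3.50 for Control, 11.1, 10.5 and 12.4 for Valine, and 10.9, 9.24 and 9.13 for Val+PA. Control libraries were close to one another and far below all others. The mean ratio was 3.51 ± 0.0302 for Control, 11.3 ± 0.928 for Valine and 9.76 ± 0.992 for Val+PA (SD, n = 3). The exact two-sided permutation p was 0.1 for Valine against Control and for Val+PA against Control, the smallest that 3 against 3 allows, and 0.2 for Val+PA against Valine.

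Genes of the proteins around both RNAs were described from lists. Counts for these lists and those below are to be read beside the shares called over all tested genes. These were 20.8% higher and 21.1% lower in Valine against Control, and 20.4% and 18.8% in Val+PA against Control. Of 21 nuclear speckle and SR splicing proteins tested, 2 rose and 11 fell in Valine against Control, with a median log2 fold change of -0.57 against -0.0049 over all tested genes. Clk1, a kinase of SR proteins, was 53.9 CPM in Control and 84.7 CPM in Valine (log2 fold change 0.65, SE 0.19, edgeR adjusted p = 0.015). U2af2, which recognises the pyrimidine tract of introns, was 241 CPM in Control and 120.3 CPM in Valine (log2 fold change -0.999, SE 0.12, edgeR adjusted p = 5.27e-05). In Val+PA against Control none rose and 13 fell at a median of -0.49, and Pnn, a speckle protein, had the largest fall, from 10.3 to 4.53 CPM. Of 24 paraspeckle proteins 1 rose and 9 fell in Valine (median -0.17), and 1 rose and 12 fell in Val+PA (median -0.39). Sfpq, a core paraspeckle protein, fell from 165 to 97.6 CPM in Valine (log2 fold change -0.76, SE 0.13, edgeR adjusted p = 0.000585). Nono, its partner, had log2 fold changes of -0.08 in Valine and -0.32 in Val+PA and was called in neither with all libraries, but in both with Control 3 and Val+PA 2 left out. Zc3h6, a zinc finger protein of the paraspeckle list, rose from 1.96 CPM in Control to 9.58 in Valine and 7.30 in Val+PA. With Control 3 and Val+PA 2 left out, 4 paraspeckle genes rose and 14 fell in Valine against Control, and 3 speckle genes rose in Val+PA against Control. In Valine against Control 1 speckle gene rose without Control 1, Control 2, Valine 1, Valine 2, Valine 3 or Val+PA 3 in turn, and 2 paraspeckle genes rose without Val+PA 2. Against Control, 1 speckle gene rose in Val+PA without Control 3 and 2 rose without Val+PA 2.

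**Figure D2:**
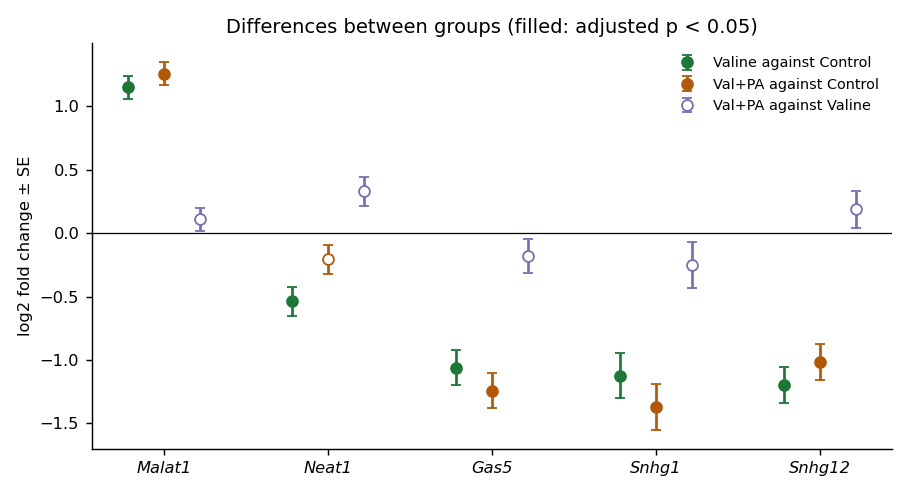
Log2 fold change (vertical axis) with its SE for the 5 members tested, in Valine against Control, Val+PA against Control and Val+PA against Valine. Filled points passed an adjusted p below 0.05 by edgeR; Malat1 lies near 1.2 above 0, the 3 snoRNA hosts lie near or below -1 against Control, and no point of Val+PA against Valine is filled.

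Gas5 (ENSMUSG00000053332, GRCm38 chr1:161034422-161038539, plus strand) was named for its accumulation in growth-arrested mouse fibroblasts. It is annotated with 10 snoRNA entries inside it, with Snord80 entered under overlapping IDs. Its level was 52.5, 56.2 and 63.5 CPM for Control, 26.9, 27.2 and 28.4 CPM for Valine, and 28.8, 20.1 and 23.8 CPM for Val+PA, replicates 1 to 3 in turn. All treated libraries were well below all Control libraries, and Val+PA 2 was the lowest of the 9. The means were 57.4 ± 5.61 CPM for Control, 27.5 ± 0.813 for Valine and 24.3 ± 4.36 for Val+PA (SD, n = 3). Gas5 was 2.09-fold lower in Valine than in Control, a log2 fold change of -1.06 (SE 0.14, edgeR adjusted p = 7.21e-05). In Val+PA it was 2.36-fold lower than in Control, a log2 fold change of -1.24 (SE 0.14, edgeR adjusted p = 2.33e-05).

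Snhg1 (ENSMUSG00000108414, GRCm38 chr19:8723475-8726443, plus strand), the host of 8 annotated snoRNAs, followed the same order. It stood at 57.7, 65.0 and 64.6 CPM for Control, 29.0, 29.3 and 27.7 CPM for Valine, and 28.4, 16.0 and 27.9 CPM for Val+PA. Control libraries did not overlap the others, and Val+PA 2 was again the lowest, far below the other Val+PA libraries. Mean levels were 62.5 ± 4.11, 28.7 ± 0.856 and 24.1 ± 7.02 CPM (SD, n = 3) in Control, Valine and Val+PA. Snhg1 was 2.18-fold lower in Valine (log2 fold change -1.12, SE 0.18, edgeR adjusted p = 0.000383) and 2.59-fold lower in Val+PA (log2 fold change -1.37, SE 0.18, edgeR adjusted p = 9.66e-05) than in Control.

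Snhg12 (ENSMUSG00000086290, GRCm38 chr4:132308623-132311024, plus strand) was the least abundant of the 3. It holds 5 annotated snoRNA entries, with Snora16a entered under overlapping IDs. Its level was 16.5, 19.99 and 23.2 CPM for Control, 7.91, 9.16 and 8.91 CPM for Valine, and 9.55, 10.2 and 9.77 CPM for Val+PA. Control libraries were again above all others, and here the Val+PA libraries were all above the Valine libraries. Val+PA and Valine did not overlap, in either direction, for 24.6% of all tested genes. The means were 19.9 ± 3.38, 8.66 ± 0.663 and 9.86 ± 0.354 CPM (SD, n = 3) in Control, Valine and Val+PA. Snhg12 was 2.30-fold lower in Valine (log2 fold change -1.20, SE 0.14, edgeR adjusted p = 4.25e-05) and 2.02-fold lower in Val+PA (log2 fold change -1.01, SE 0.14, edgeR adjusted p = 0.000152) than in Control.

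Between Val+PA and Valine the 3 hosts were not called. The log2 fold change was -0.18 for Gas5 (95% interval -0.51 to 0.15, edgeR adjusted p = 0.532), -0.25 for Snhg1 (-0.69 to 0.19, adjusted p = 0.515) and 0.19 for Snhg12 (-0.16 to 0.54, adjusted p = 0.541). Without Val+PA 2, whose values were lowest for Gas5 and Snhg1, the same log2 fold changes were -0.06 for Gas5 and -0.03 for Snhg1. With both Control 3 and Val+PA 2 left out, the log2 fold changes in Valine against Control were 1.22 for Malat1, -0.46 for Neat1, -0.98 for Gas5, -1.09 for Snhg1 and -1.07 for Snhg12. In Val+PA against Control they were then 1.33 for Malat1, -0.16 for Neat1, -1.04 for Gas5, -1.12 for Snhg1 and -0.92 for Snhg12, and each call was as with all libraries. Between hosts the mean ratio of Snhg1 to Gas5 counts was 1.09 ± 0.0699 for Control, 1.04 ± 0.0602 for Valine and 0.983 ± 0.190 for Val+PA (SD, n = 3). The exact two-sided permutation p for that ratio was 0.4 for Valine against Control and 0.5 for Val+PA against Control. The mean Snhg1 to Snhg12 ratio was 3.18 ± 0.366 for Control, 3.33 ± 0.301 for Valine and 2.46 ± 0.784 for Val+PA. By exact permutation its p was 0.6 and 0.3 against Control. It was 0.1 for Val+PA against Valine, whose libraries did not overlap. For Gas5 to Snhg12 the means were 2.91 ± 0.241, 3.19 ± 0.220 and 2.47 ± 0.527, with permutation p from 0.2 to 0.3.

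Other snoRNA host genes were taken from a list of 17, of which 14 were in the table and 12 were tested. In Valine against Control 6 fell and 1 rose, with a median log2 fold change of -0.87 against -0.0049 over all tested genes, and in Val+PA against Control again 6 fell and 1 rose, with a median of -0.59. Snhg5 had the largest fall, from 43.5 ± 10.7 CPM in Control to 17.0 ± 1.04 CPM in Valine (log2 fold change -1.35, SE 0.16, edgeR adjusted p = 5.06e-05). Snhg8, Snhg17, Snhg15, Snhg6 and Zfas1 fell too, with log2 fold changes of -1.26, -0.97, -0.95, -0.90 and -0.84 in Valine. Snhg11 rose by a log2 fold change of 2.58 at a low level, from 0.198 to 1.23 CPM. Epb41l4aos, Snhg10, Snhg14, Snhg18 and Snhg20 were not called, with log2 fold changes of -1.03 to 0.51. In Valine against Control 2 hosts rose without Control 1 or Val+PA 2, and in Val+PA against Control 2 rose without Control 1, Control 3 or Val+PA 1.

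**Figure D3:**
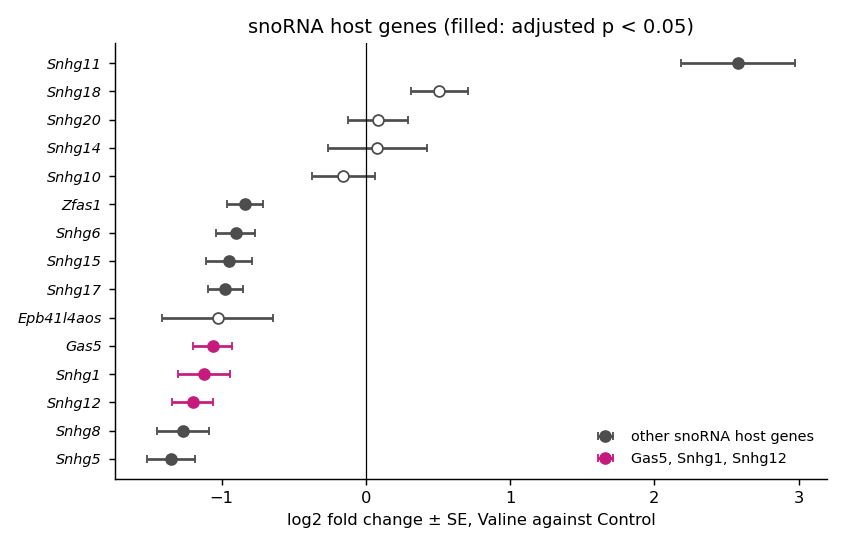
Log2 fold change with its SE in Valine against Control (horizontal axis) for Gas5, Snhg1 and Snhg12 and the 12 other snoRNA host genes tested. Filled points passed an adjusted p below 0.05 by edgeR; 9 of the 15 genes lie below 0 and are filled, and Snhg11 is the filled point above 0.

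Genes acting on snoRNAs and on host RNAs were read from further lists. Of 19 snoRNP proteins and assembly factors, none rose and 12 fell in Valine against Control (median log2 fold change -0.80), and 13 fell in Val+PA against Control (median -0.62). Dkc1, the pseudouridine synthase of box H/ACA particles, fell from 51.7 CPM in Control to 19.7 in Valine (log2 fold change -1.39, SE 0.13, edgeR adjusted p = 8.52e-06). Nop56 and Nop58, the core proteins of box C/D particles, had log2 fold changes of -1.27 and -1.26 in Valine. Of 18 nonsense-mediated decay factors 1 rose and 12 fell in Valine (median -0.55), and 2 rose and 11 fell in Val+PA (median -0.47). Smg5, which recruits the decay enzymes, fell from 213 to 89.2 CPM in Valine (log2 fold change -1.25, SE 0.13, edgeR adjusted p = 1.31e-05). Smg6, the endonuclease of the pathway, rose from 23.4 to 30.2 CPM (log2 fold change 0.37, SE 0.11, edgeR adjusted p = 0.0143), a call lost without Control 1, Control 2 or Valine 2. Without Valine 3, 7 of these factors fell in Valine against Control, and with Control 3 and Val+PA 2 left out 2 rose. The comparison of Val+PA with Control had 1 rise when any single library other than Control 3 or Val+PA 1 was left out.

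The 5′ TOP mRNAs were read as the class whose start tract host genes often share. Of 35 tested, 2 rose and 11 fell in Valine against Control with a median log2 fold change of -0.12, and 5 rose and 7 fell in Val+PA against Control with a median of -0.04. Rps2, a small-subunit ribosomal protein, fell from 511 to 276 CPM in Valine (log2 fold change -0.89, SE 0.25, edgeR adjusted p = 0.0122), a call lost without Control 3. Eef2, the translocase of translation, rose from 1094 CPM in Control to 1572 in Valine (log2 fold change 0.52, SE 0.13, edgeR adjusted p = 0.00663). Npm1, a nucleolar chaperone, had the largest fall in Val+PA, from 674 to 376 CPM. With Control 3 and Val+PA 2 left out 6 rose in Valine, and 11 rose and 15 fell in Val+PA, and without Valine 1, 2 or 3 in turn 5 to 7 fell in Valine. Without Val+PA 2, 4 rose in Valine. In Val+PA 2 rose without Control 1, and 3 rose without Control 2, Valine 1, Valine 2, Valine 3 or Val+PA 3 in turn. No test compared this list with the hosts.

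Neighbouring genes of the hosts were measured in the same libraries. Slc3a2, the heavy chain of amino acid transporters, lies on the opposite strand 105 bases from Snhg1. It stood at 161 ± 6.38 CPM for Control, 272 ± 9.43 for Valine and 337 ± 67.4 for Val+PA (SD, n = 3), and rose by a log2 fold change of 0.76 in Valine (SE 0.13, edgeR adjusted p = 0.000562) and 1.07 in Val+PA (SE 0.13, edgeR adjusted p = 4.85e-05). The ratio of Slc3a2 to Snhg1 counts was 2.91, 2.42 and 2.42 for Control, 9.02, 9.36 and 10.1 for Valine, and 11.2, 25.8 and 10.1 for Val+PA. Control libraries were far below all others, and Val+PA 2 was far above. Zbtb37, a zinc finger gene, overlaps Gas5 by 428 bases on the opposite strand. It stood at 27.8 ± 1.12, 54.0 ± 0.968 and 44.3 ± 7.72 CPM in Control, Valine and Val+PA (SD, n = 3), and rose by 0.96 on the log2 scale in Valine (SE 0.13, edgeR adjusted p = 0.000103). The ratio of Zbtb37 to Gas5 counts was 0.505, 0.505 and 0.449 for Control, 2.05, 1.97 and 1.88 for Valine, and 1.69, 1.76 and 2.05 for Val+PA. For both ratios the exact two-sided permutation p was 0.1 in each comparison with Control. With the strand setting of the counting unknown here, reads in the overlap of Gas5 and Zbtb37 may not be told apart. Trnau1ap, the neighbour of Snhg12, was not called (log2 fold change 0.03 in Valine, edgeR adjusted p = 0.891).

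**Figure D4:**
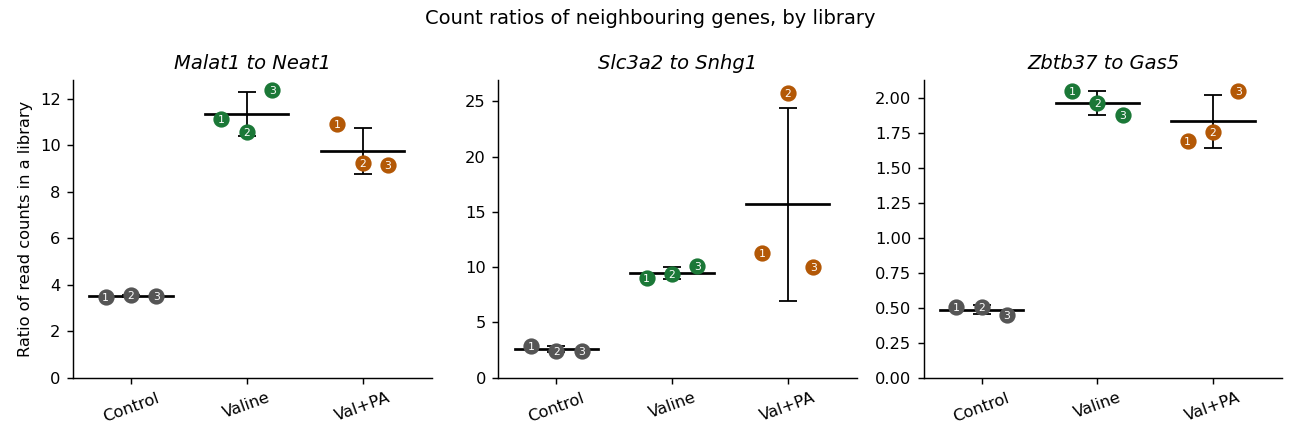
Ratio of read counts within a library (linear axes from 0) for Malat1 to Neat1, Slc3a2 to Snhg1 and Zbtb37 to Gas5 in the 3 groups. Numbered points are replicates, lines are means and bars are SD; in all 3 panels the Control libraries lie below every other library, and Val+PA 2 stands at 25.8 for Slc3a2 to Snhg1.

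The snoRNAs themselves were not measured here. The annotation places 56 snoRNA and microRNA entries on the same strand inside members, some of them repeats of the same snoRNA. Of these, 48 are in the count table, and none of the 48 had a count in any library. Over all entries 324 of 1065 snoRNAs and 491 of 1127 microRNAs had counts. The merged exons of Snhg1 and Snhg12 cover each gene from end to end, so a read over one of their snoRNAs overlaps both genes, and the rule for counting such reads is not known here. These zeros therefore say nothing of snoRNA levels.

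Levels of different members were compared on the deposited normalized signal, which is per exonic length. That length merges all annotated transcripts. It covers Snhg1 and Snhg12 from end to end, 3760 of the 4118 bases of Gas5, and Neat1 over both isoforms. The order below holds for this measure only, since the lengths of the RNAs present were not measured. In Control the mean signal was 486 ± 26.1 for Malat1, 46.6 ± 2.72 for Neat1, 43.0 ± 3.13 for Snhg1, 31.1 ± 2.42 for Gas5 and 16.9 ± 2.59 for Snhg12 (SD, n = 3). Neat1 and Snhg1 overlapped in Control, and the other neighbours in this order did not. In Valine the signal was 1108 ± 33.3 for Malat1, 33.0 ± 2.96 for Neat1, 20.2 ± 0.716 for Snhg1, 15.3 ± 0.364 for Gas5 and 7.55 ± 0.565 for Snhg12, with no overlap. In Val+PA the signal was 1190.2 ± 29.7 for Malat1, 41.3 ± 4.79 for Neat1, 16.9 ± 4.96 for Snhg1, 13.5 ± 2.40 for Gas5 and 8.57 ± 0.308 for Snhg12. There Snhg1 and Gas5 overlapped, and the order of means was the same in all 3 groups.

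Among the 1771 long non-coding genes tested (lincRNA, processed transcript or antisense in the annotation), 21.2% rose and 8.92% fell in Valine against Control, with a median log2 fold change of 0.22. For 13377 protein-coding genes these shares were 23.3% and 24.3%. By level Neat1 ranked 4, Snhg1 25, Gas5 29 and Snhg12 66 in this class. Of a list of other long non-coding RNAs 24 were tested, and 12 rose and 3 fell in Valine (median 0.39), while 10 rose and 4 fell in Val+PA (median 0.36). Trp53cor1, also called lincRNA-p21, rose from 0.712 to 5.08 CPM in Valine (log2 fold change 2.81, SE 0.21, edgeR adjusted p = 1.20e-06). Lncpint fell from 21.7 to 6.07 CPM (log2 fold change -1.83, SE 0.18, edgeR adjusted p = 9.45e-06). With Control 3 and Val+PA 2 left out, or Val+PA 2 alone, 5 of this list fell in Valine.

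**Figure D5:**
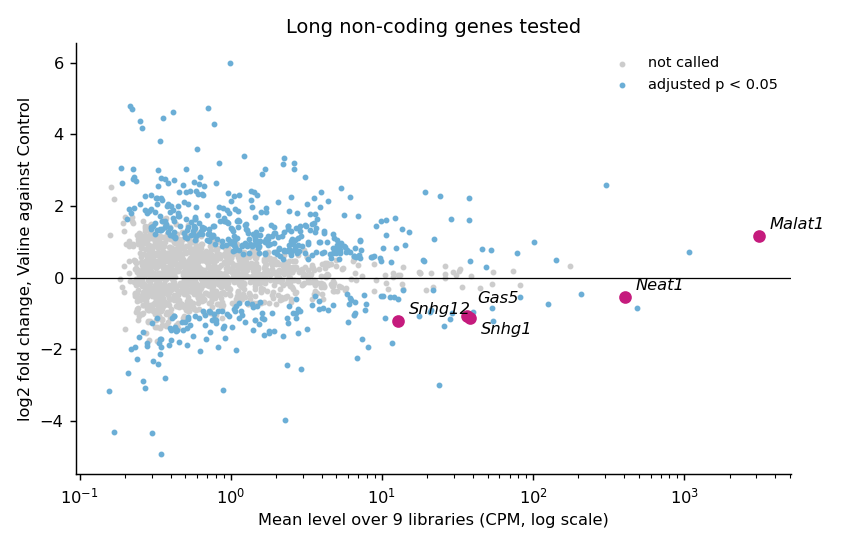
Mean level over the 9 libraries (CPM, log axis) against the log2 fold change in Valine against Control for 1771 long non-coding genes tested. Blue points passed an adjusted p below 0.05 by edgeR and grey points did not; Malat1 lies at the far right above 0, and Neat1, Gas5, Snhg1 and Snhg12 lie below 0.

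The genes most like each member in pattern over the 9 libraries were found among 10913 genes by the root mean square difference of centred log2 CPM, given here as a description. Tmem241, Enah and Pcnx were closest to Malat1, at 0.07, 0.07 and 0.08. Eps8l2, Il34 and Gdpgp1 were closest to Neat1, at 0.07, 0.07 and 0.08. Gas5 was most like Mad2l1, a spindle checkpoint protein, at 0.07, then Nup35, of the nuclear pore, at 0.08 and Srsf1, an SR splicing protein, at 0.10. Snhg1 was most like Tex30, Dek and Hat1, at 0.09, 0.10 and 0.10, and Snhg12 was most like Heatr3, Cnot9 and Cgas, at 0.08, 0.09 and 0.09. Gas5 and Snhg1 differed from each other by 0.16, at which Snhg1 was gene 62 in the order for Gas5.

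Meg3, Rian and Mirg were at or near 0 in these cells. Meg3 (ENSMUSG00000021268, GRCm38 chr12:109541001-109571726, plus strand) had 0 counts in all 9 libraries. Rian (ENSMUSG00000097451, chr12:109603940-109661716, plus strand), a host of 13 annotated snoRNAs, had 1 count in each of Control 3, Valine 3 and Val+PA 3. Mirg (ENSMUSG00000097391, chr12:109729764-109749460, plus strand), a host of 14 annotated microRNAs, had 1 count, in Val+PA 3. A count of 0 over a group of 3 libraries allows up to 3 counts as a one-sided limit, for counting error only. That floor is 0.033 CPM for Control, 0.0292 for Valine and 0.0299 for Val+PA. The exact two-sided 95% Poisson upper bound for 0 counts was 0.0405 CPM for Control, 0.0359 for Valine and 0.0368 for Val+PA. Groups with 1 count had an exact 95% Poisson upper bound of 0.0612 CPM for Control, 0.0542 for Valine and 0.0556 for Val+PA. No group held more than 1 count of any of the 3 genes, fewer than the 3 counts of the floor, so no fold change is given and no difference was detectable at this depth.

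Between Dlk1 and Mirg (GRCm38 chr12:109452823-109749460) 3 of 85 gene entries had any count, with 5 counts in all over the 9 libraries. These were the 3 counts of Rian, the 1 count of Mirg and 1 count of the lincRNA B830012L14Rik. The stretch was singled out after its values were seen. Over the whole domain up to Dio3 (chr12:109452823-110281097) 11 of 99 entries had counts, 9625 in all, of which 9116 were in the processed pseudogene Gm3379, whose reads may belong to a gene of similar sequence, and 315 in the lincRNA Gm34719. Dlk1, Rtl1 and Dio3, the protein-coding genes of the domain, had no count in any library. Outside the domain Wars, a tRNA synthetase, rose from 130 CPM in Control to 184 in Valine (log2 fold change 0.50, SE 0.14, edgeR adjusted p = 0.0143), a call lost without Valine 2, while Begain and Wdr25 were not called. Of 19 other imprinted genes 17 were tested, with 10 of 17 rising and none falling in Valine (median log2 fold change 0.76) and 8 rising and none falling in Val+PA (median 0.62). Among all tested genes 20.8% rose and 21.1% fell in Valine, and 20.4% rose and 18.8% fell in Val+PA. Dcn, a matrix proteoglycan imprinted in mouse placenta and also a fibroblast marker here, rose from 9.66 to 255 CPM in Valine (log2 fold change 4.71, SE 0.34, edgeR adjusted p = 1.01e-06). H19, the maternally expressed RNA that is on both this list and the long non-coding list, rose from 79.1 to 476 CPM in Valine (log2 fold change 2.59, SE 0.18) and is named outside the rule for named genes.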

How the data were processed

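Total RNA of C2C12 cells gave 9 paired-end libraries, made with a strand-specific kit per the labels. The submitters' processing notes name HISAT2, featureCounts, DESeq2 and GRCm38. For their versions, strand setting and annotation release, the sources used here give nothing. Read counts per gene were deposited without normalization. The deposited normalized signal is, tested on the values, scaled by the authors to exonic length and library. The Val+PA columns carry a shortened code and were matched to the labels by it. GENCODE M21 gave symbols to 52093 of 53700 IDs (97%).

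Genes were kept by filterByExpr (18415 tested), scaled by TMM and modelled by the quasi-likelihood method of edgeR 4.0.16 (R 4.3.3), with 1 mean per group over all 9 libraries and 6 residual degrees of freedom. Tests were two-sided, with Benjamini-Hochberg adjusted p below 0.05 over all genes tested. SE was derived as the size of the log2 fold change over the root of the F statistic, and 95% intervals use 6 degrees of freedom. The edgeR p-values also draw on degrees of freedom shared over genes, so the intervals are wider than those p-values imply. Ratios of counts within a library were compared by exact permutation. Besides the members, the text names the largest called rise and fall of each list in each comparison with Control (mean of at least 2 CPM), or the smallest p where none was called, and for likeness the 3 nearest genes (log2 of CPM plus 0.5). One gene that this rule names is not reported here. Other list members named, among them Snhg6, Snhg8, Snhg11, Nop56, Nop58, Nono and H19, and the neighbouring genes were picked outside that rule, with values seen. Members and lists were chosen with earlier results of these data known, so no list test was made. On counts simulated at 2-fold, 81 of 100 changed genes were recovered for Valine against Control (17984 genes), 85 for Val+PA against Valine (17997) and 84 for Val+PA against Control (18001). In the same order 13, 9 and 9 unchanged genes were called. The simulated libraries were independent, with no plate effect and no outlying library, so these rates need not hold for the real libraries.

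Alternatives were DESeq2 1.42.0, limma 3.58.1 (voom, and log2 of the deposited signal plus 1 or 0.1), other scaling factors, other filters, the compared groups alone, a replicate block, each library left out, Control 3 and Val+PA 2 left out, and a threshold of 0.01. Library totals ran from 26750226 to 35976589 counts. No pair of replicates agreed within sampling noise (chi-square per degree of freedom 3.93 to 113).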

Additional observations from a re-analysis of the deposited data

How the results depend on the processing

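All 15 log2 fold changes of the 5 members tested kept their direction and their side of the threshold in all 23 alternatives. In Valine against Control they ranged from 1.10 to 1.23 for Malat1, -0.60 to -0.46 for Neat1 (adjusted p up to 0.0217), -1.12 to -0.97 for Gas5, -1.18 to -1.05 for Snhg1 and -1.32 to -1.06 for Snhg12. The lowest adjusted p of Neat1 in Val+PA against Valine was 0.0721, with Control 3 and Val+PA 2 left out. Over all genes, Valine against Control called 7718 and fell to 5092 at the threshold of 0.01. Val+PA against Valine called 0 genes by edgeR, 763 with no filter, 604 with Control 3 and Val+PA 2 left out and 212 by DESeq2; the cause was not tested. Leaving out each library gave 5796 to 9244 genes for Valine against Control, 6043 to 7863 for Val+PA against Control and 0 for Val+PA against Valine. With a replicate block the 3 comparisons called 7369 (Valine against Control), 0 (Val+PA against Valine) and 6935 (Val+PA against Control) genes, and the members called were the same 5, 0 and 4. The shared replicate numbers were not taken as pairing, since deviations of same-numbered libraries correlated at -0.47 to 0.27. Of 1012 counts of list genes in the comparisons with Control, 887 stayed within 1.5 times and 125 moved further. For list genes and neighbours named in the text, checked after the data were seen, 2218 of 2271 values kept their side of the threshold. None of the called ones reversed. For genes not called with the main settings, direction was not compared. Other scalings moved the median of all genes by at most 0.0724 on the log2 scale. Depth limits Meg3, Rian and Mirg, which lay under the floor of 3 counts.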
